A study of Mus musculus with 26 samples.

Results

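Lysosomes are the acidic compartments in which cells break down proteins, lipids, glycogen and glycosaminoglycans. Soluble hydrolases are sorted there from the Golgi by the mannose 6-phosphate receptors, heavily glycosylated membrane proteins such as LAMP1 line the limiting membrane, and the V-ATPase pumps in the protons on which the enzymes depend. The transcription factors TFEB and TFE3 bind E-box sequences in front of many of these genes, and the kinase mTORC1, which sits on the lysosomal surface and responds to PI3K and AKT signalling, keeps them in the cytoplasm. Transcripts of 36 such genes, chosen by name, were followed out of 55254 symbols in a table of inner cell masses (ICMs) of the mouse blastocyst. They were 18 hydrolases, 3 luminal proteins that are not themselves enzymes (Psap, Npc2 and Grn), 7 membrane proteins, 6 V-ATPase subunits, and Tfeb and Tfe3.

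Each of 26 libraries was made from the ICM of 1 CD-1 embryo with FLASH-seq, a protocol for very small RNA amounts that reads along whole transcripts. All embryos were morulae of stage E2.75 that lost their zona pellucida, spent 24 hours in KSOM medium and were freed of their outer cells by immunosurgery, in which antibody and complement lyse the trophectoderm. The groups were LY+FGF4 (6 ICMs, with 10 µM LY294002, an inhibitor of PI3K, and 1 µg/ml FGF4 with heparin), FGF4 (8 ICMs, FGF4 with heparin alone), LY (7 ICMs, the inhibitor alone) and DMSO (5 ICMs, vehicle). Embryos of 5 litters were mixed before they were shared out, so the litter of a library is unknown, and all groups share the strain, the stage and the culture. The series addresses how PI3K and AKT signalling bears on the choice of ICM cells between epiblast and primitive endoderm.

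Values are TPM, which are shares of a library per unit of transcript length and hold no read number. The number of genes at a TPM of at least 1 was 7486 to 9534 (LY+FGF4), 8315 to 10871 (FGF4), 9860 to 10215 (LY) and 10212 to 11367 (DMSO), and 4 LY+FGF4 and 2 FGF4 libraries were under 9000. Nanog, which marks epiblast, was above 0 in 4 of 6 LY+FGF4, 7 of 8 FGF4, 7 of 7 LY and 5 of 5 DMSO libraries. Markers of outer cells were still detected. The summed TPM of 15 trophectoderm markers was 875.6 to 2552 (LY+FGF4), 630.6 to 1933 (FGF4), 2137 to 2870 (LY) and 1461 to 2839 (DMSO). Of these markers Krt8 was above 0 in all 26 libraries, while Cdx2 was at 0 in 4 of 6 LY+FGF4 and 2 of 8 FGF4 libraries and in no LY or DMSO library.

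The sequences just before the RefSeq start of 6 of the genes are shown because they differ in the E-box CACGTG, the core of the element to which TFEB and TFE3 bind. They are the 250 bases upstream of the RefSeq gene start, 5′ to 3′ on the strand of the gene (GRCm38.p6), with each CACGTG in capitals. In another annotation, GENCODE M21, Ctsd, Gaa, Npc2 and Grn start inside the stretch shown, and Psap at its last base. Part of these stretches thus lies within the gene in that annotation, for Ctsd with the E-box nearer to the RefSeq start. Of the 6, Ctsd, Gaa, Psap, Npc2 and Grn passed the test in at least 1 comparison described below, and Lamp1 in none.
Ctsd, chr7:142387828-142388077, minus strand: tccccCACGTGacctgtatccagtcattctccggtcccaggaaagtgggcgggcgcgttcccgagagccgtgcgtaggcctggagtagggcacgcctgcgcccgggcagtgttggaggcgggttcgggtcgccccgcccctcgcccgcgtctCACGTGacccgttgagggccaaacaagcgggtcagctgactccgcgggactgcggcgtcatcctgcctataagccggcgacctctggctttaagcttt
Gaa, chr11:119267713-119267962, plus strand: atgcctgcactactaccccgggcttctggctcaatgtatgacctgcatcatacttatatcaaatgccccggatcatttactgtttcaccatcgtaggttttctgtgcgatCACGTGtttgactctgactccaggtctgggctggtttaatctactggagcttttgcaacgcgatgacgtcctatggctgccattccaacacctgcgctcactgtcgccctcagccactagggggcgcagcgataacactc
Lamp1, chr8:13158911-13159160, plus strand: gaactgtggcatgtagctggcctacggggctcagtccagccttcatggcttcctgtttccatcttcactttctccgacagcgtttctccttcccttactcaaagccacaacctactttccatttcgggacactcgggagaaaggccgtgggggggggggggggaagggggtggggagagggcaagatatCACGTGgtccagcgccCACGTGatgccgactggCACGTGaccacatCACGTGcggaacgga
Psap, chr10:60277378-60277627, plus strand: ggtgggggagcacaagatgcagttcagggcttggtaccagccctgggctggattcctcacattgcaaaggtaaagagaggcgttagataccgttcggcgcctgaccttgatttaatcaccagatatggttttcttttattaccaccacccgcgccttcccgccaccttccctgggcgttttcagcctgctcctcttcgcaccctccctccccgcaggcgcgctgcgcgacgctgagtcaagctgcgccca
Npc2, chr12:84773113-84773362, minus strand: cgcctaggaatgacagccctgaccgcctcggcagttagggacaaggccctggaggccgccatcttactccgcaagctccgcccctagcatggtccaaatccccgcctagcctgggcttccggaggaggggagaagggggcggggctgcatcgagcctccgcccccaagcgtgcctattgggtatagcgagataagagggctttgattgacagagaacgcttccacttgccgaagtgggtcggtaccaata
Grn, chr11:102430257-102430506, plus strand: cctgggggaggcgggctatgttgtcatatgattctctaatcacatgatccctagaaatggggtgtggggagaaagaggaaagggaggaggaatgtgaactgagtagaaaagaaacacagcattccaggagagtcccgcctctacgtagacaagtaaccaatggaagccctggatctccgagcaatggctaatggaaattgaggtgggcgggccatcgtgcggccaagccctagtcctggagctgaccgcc

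Lamp1 held 4 of these E-boxes within 61 bases of its start, Ctsd held 2, Gaa 1, and Psap, Npc2 and Grn 0. RefSeq windows of 300 bases, which add the first 50 bases of the transcript, were at hand for 31 of the 36 genes, with Ctsb, Npc1, Asah1, Atp6v1b2 and Atp6v1h not among them. CACGTG, which reads the same on either strand, lay in 12 of their 38 windows (31.6%), against 7.15% of all 32851 windows and 7.84% of the 21263 windows of protein-coding genes. TCACGTG on either strand, which contains the shorter motif, lay in 11 of the 38 windows (28.9%), against 3.77% of all windows. By class, CACGTG was found in the windows of 8 of 16 hydrolase genes (Ctsa, Ctsd, Ctsl, Gaa, Gla, Glb1, Naglu and Sgsh), 0 of 3 luminal genes, 2 of 6 membrane genes (Lamp1 and Mcoln1), 2 of 4 V-ATPase genes (Atp6v0d1 and Atp6v1a), and 0 of 2 factor genes. A match describes the letters in a window and is not a measured binding site.

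In DMSO the lysosomal transcripts were led by Psap, which encodes prosaposin, the precursor of the saposins that present sphingolipids to their hydrolases, at 1457 ± 162 TPM (SD, n = 5). It was followed by Cd63, a tetraspanin of late endosomes, at 1264 ± 294 TPM. Next came Ctsd, the aspartic protease cathepsin D, at 761 ± 171 TPM, and Npc2, which carries cholesterol from the lumen to the membrane protein NPC1, at 680 ± 227 TPM. Lamp1, a main protein of the limiting membrane, averaged 492.7 ± 58.7 TPM and Ctsa, protective protein/cathepsin A, 481 ± 83.2 TPM. The mean was at least 100 TPM for 25 of the 36 genes.

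The lower end held Npc1, a cholesterol transporter, at 16.3 ± 3.9 TPM, Naglu, an enzyme of heparan sulfate breakdown, at 8.76 ± 4.05 TPM, and Sgsh, another of that pathway, at 1.92 ± 2.55 TPM. Lipa, the acid lipase of the lysosome, was listed at 0 in 25 of 26 libraries and at 0.94 TPM in DMSO replicate 7, and was the only 1 of the 36 genes that did not pass the expression filter. Of the 36 genes, 28 were above 0 in every library. The steadiest in DMSO were Scarb2, the receptor that delivers β-glucocerebrosidase, with an SD of 8.38% of its mean, and Laptm4a, a transmembrane protein of late endosomes, with 8.86%, while Ctsl, the cysteine protease cathepsin L, had 66.5%.

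**Figure D1:**
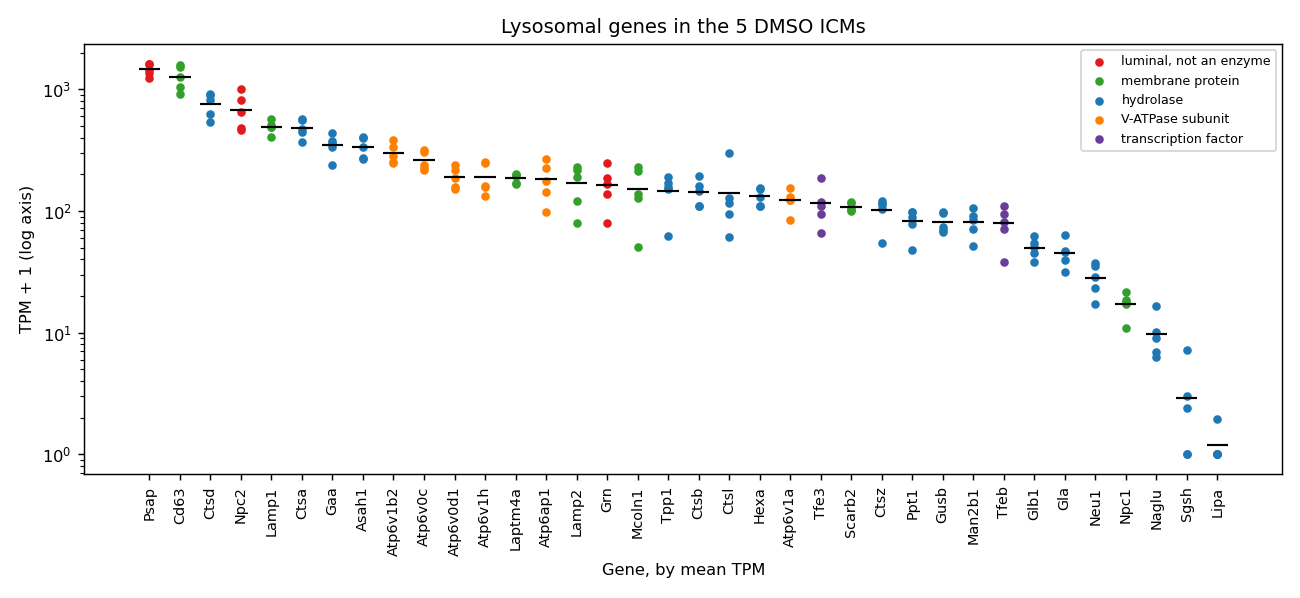
TPM + 1 on a log axis for the 36 lysosomal genes in the 5 DMSO ICMs, ordered by mean; points are libraries, bars are means and colours are classes. Psap and Cd63 reach at least 906 TPM in every DMSO library, while Sgsh and Lipa lie near 0.

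The first comparison concerns added FGF4, a growth factor that drives ICM cells toward primitive endoderm, against DMSO. Psap, Npc2, Grn and Ctsd fell with FGF4, to between 32.6% and 46.8% of their DMSO means, and no gene of the 35 tested was called higher. In a limma fit of log2(TPM + 1) over 12034 genes (Benjamini-Hochberg adjusted p under 0.05), 4 of 35 tested lysosomal genes were lower (11.4%), against 1.46% of all genes tested. None were higher, against 0.981% of all genes, and 2.44% passed in either direction. The 4 comprised all 3 luminal genes, 1 of 17 tested hydrolases, 0 of 7 membrane genes and 0 of 6 V-ATPase genes. The median log2 fold change was -0.32 over the 35 genes and -0.10 over all genes, and 30 of the 35 were negative (85.7%), against 56.1% of all genes.

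Psap was at 387 TPM in the lowest, 603 in the median and 1054 in the highest FGF4 library, against 1373, 1607, 1628, 1245 and 1430 TPM in DMSO replicates 3, 6, 7, 8 and 9. Every FGF4 library was thus below every DMSO library, as for 1.63% of all genes tested, and Psap was the only 1 of the 35 with this pattern. The log2 fold change was -1.17 ± 0.23 (SE, adjusted p = 0.00451).

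Npc2 was at 125 TPM in the lowest, 192 in the median and 518 in the highest FGF4 library, against 646, 998, 811, 484 and 459 TPM in the DMSO replicates in the same order. Only FGF4 replicate 6 reached into the DMSO range. The log2 fold change was -1.64 ± 0.36 (SE, adjusted p = 0.0117).

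Grn encodes progranulin, a secreted and lysosomal glycoprotein that is cut into granulins. It was at 23.3 TPM in the lowest, 50.5 in the median and 97.3 in the highest FGF4 library, against 136, 164, 247, 78.2 and 186 TPM in DMSO. Again only FGF4 replicate 6 overlapped with DMSO, and the log2 fold change was -1.62 ± 0.37 (SE, adjusted p = 0.0157).

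Ctsd was at 136 TPM in the lowest, 366 in the median and 591 in the highest FGF4 library, against 820, 918, 903, 535 and 631 TPM in DMSO. FGF4 replicate 6 was once more the only library within the DMSO range. The log2 fold change was -1.17 ± 0.24 (SE, adjusted p = 0.00791). Ctsd shares 34.4% of its exon bases with Gm49369 on the same strand, which averaged 13.5 TPM, and how reads were divided between them is not given in the sources used here.

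FGF4 replicate 6, the highest FGF4 library for all 4 genes, also had the highest Nanog of its group, at 176 TPM against 0 to 17.4 TPM in the other FGF4 libraries, and the highest Cdx2, at 282 TPM against 0 to 54.4 TPM. Of the other epiblast markers, Fgf4, Klf2 and Gdf3 were highest in replicate 6 as well. Sox2, Prdm14, Utf1, Esrrb and Tdgf1 were higher in another FGF4 library. Without it the log2 fold changes were -1.27 for Psap, -1.83 for Npc2, -1.76 for Grn and -1.29 for Ctsd, with limma adjusted p-values of 0.00126, 0.00245, 0.00675 and 0.00202. Npc2 lost its call without DMSO replicate 6 (adjusted p = 0.0509) and Grn without DMSO replicate 7 (adjusted p = 0.0725). Beside these genes, 5 of 9 epiblast and 3 of 13 tested trophectoderm markers fell and 6 of 14 primitive endoderm markers rose with FGF4. The summed TPM of 9 epiblast markers ranged from 190.1 to 669.5 with FGF4 and from 1016 to 1467 in DMSO, that of 14 primitive endoderm markers from 1669 to 4738 with FGF4 and from 807.2 to 1597 in DMSO, and that of the trophectoderm markers is given above. A trophectoderm score, the mean of log2(TPM + 1) over the 15 trophectoderm markers in a library and not their summed TPM, was tried as a covariate. With it none of the 4 genes passed (log2 fold changes of -0.75 for Psap, -1.25 for Npc2, -1.50 for Grn and -1.02 for Ctsd, limma adjusted p = 0.147, 0.195, 0.146 and 0.128). The part of the epiblast and primitive endoderm markers was not tested, and in whole ICMs fewer cells of a type and less RNA per cell cannot be told apart.

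The other hydrolases did not pass the test with FGF4. Ctsa was at 219 to 665 TPM with FGF4 and at 367 to 564 TPM in DMSO (log2 fold change -0.19, 95% interval -0.80 to 0.43, adjusted p = 0.826). Asah1, acid ceramidase, was at 233 to 604 TPM with FGF4 and at 269 to 402 TPM in DMSO (0.31, adjusted p = 0.692). The largest positive value was that of Ctsl (1.18, adjusted p = 0.245), at 122 to 757 TPM with FGF4 and 60.6 to 297 TPM in DMSO. Cathepsins thus did not share a direction in these point values, with Ctsd lower and Ctsb at 0.35 (adjusted p = 0.51).

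Among membrane proteins, Lamp1 was at 208 to 467 TPM with FGF4 and 405 to 568.3 TPM in DMSO (-0.58 ± 0.18, adjusted p = 0.0779), and passed with library weights (-0.56, adjusted p = 0.00953) or without FGF4 replicate 6 (-0.65, adjusted p = 0.0328). Lamp2, its close relative, was at 39.4 to 226 TPM with FGF4 and 78.7 to 230 TPM in DMSO (-0.75, adjusted p = 0.288), and passed only with library weights (-0.95, adjusted p = 0.0417). Cd63 was at 1038 to 1699 TPM with FGF4 and 906 to 1570 TPM in DMSO (0.09, 95% interval -0.27 to 0.45, adjusted p = 0.86). Of the V-ATPase, Atp6v0d1, a subunit of the membrane sector, gave -0.60 (adjusted p = 0.206) and Atp6v1b2, a nucleotide-binding subunit of the cytosolic sector, 0.33 (adjusted p = 0.313).

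**Figure D2:**
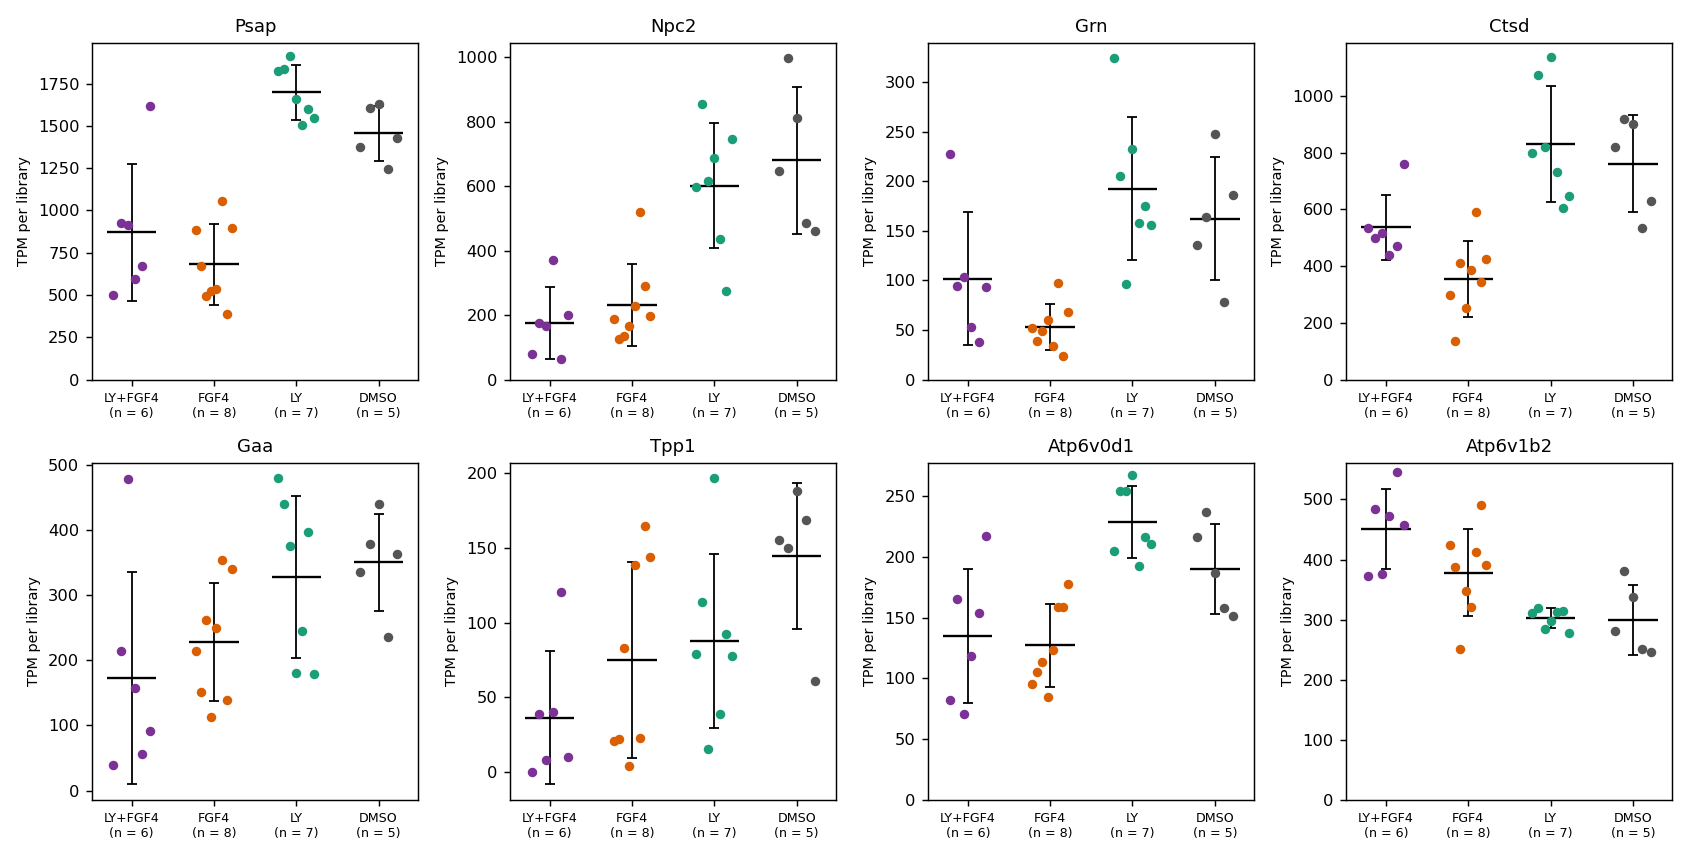
TPM per library for the 8 lysosomal genes that passed the test in at least 1 comparison; points are ICMs, horizontal bars are means and whiskers are 1 SD. Psap, Npc2, Grn and Ctsd are lower in FGF4 than in DMSO libraries, and all 6 LY+FGF4 libraries of Atp6v1b2 (372 to 546 TPM) are above all 7 LY libraries (278 to 320 TPM).

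The inhibitor on its own was set against DMSO. Lysosomal transcripts gave no call. With limma, 0 of 35 genes passed, against 0.374% of all genes tested (0.0748% higher and 0.299% lower). An unadjusted p under 0.05 was found for 2 of the 35 and for 1034 of all 12034 genes. The median log2 fold change over the 35 genes was 0.07, against -0.10 over all genes. PI3K activity was not measured in these libraries.

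None of the 4 genes that were lower with FGF4 passed with LY alone. Psap was at 1507 to 1916 TPM with LY and 1245 to 1628 TPM in DMSO (0.22, 95% interval -0.25 to 0.70, adjusted p = 0.901). Ctsd was at 604 to 1138 TPM with LY and 535 to 918 TPM in DMSO (0.12, interval -0.39 to 0.63, adjusted p = 0.981). Npc2 (-0.19, interval -0.95 to 0.56) and Grn (0.26, interval -0.53 to 1.04) had wider intervals.

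Lamp2 had the smallest p of the 35 with LY, at 210 TPM in the lowest, 299 in the median and 456 in the highest LY library, against 217, 230, 190, 78.7 and 121 TPM in DMSO. The groups overlapped in the lowest LY library, and the gene did not pass (0.99 ± 0.36, adjusted p = 0.325). Scarb2 was at 123 to 165 TPM in LY libraries and 98.2 to 119 TPM in DMSO libraries without overlap, a pattern seen upward in 0.806% of all genes tested, but gave 0.39 (adjusted p = 0.823). Neu1, the sialidase that works in a complex with cathepsin A, was at 0 to 17 TPM with LY and 16.2 to 36.6 TPM in DMSO (-1.93 ± 0.84, adjusted p = 0.479), and passed only with library weights (adjusted p = 0.0405).

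**Figure D3:**
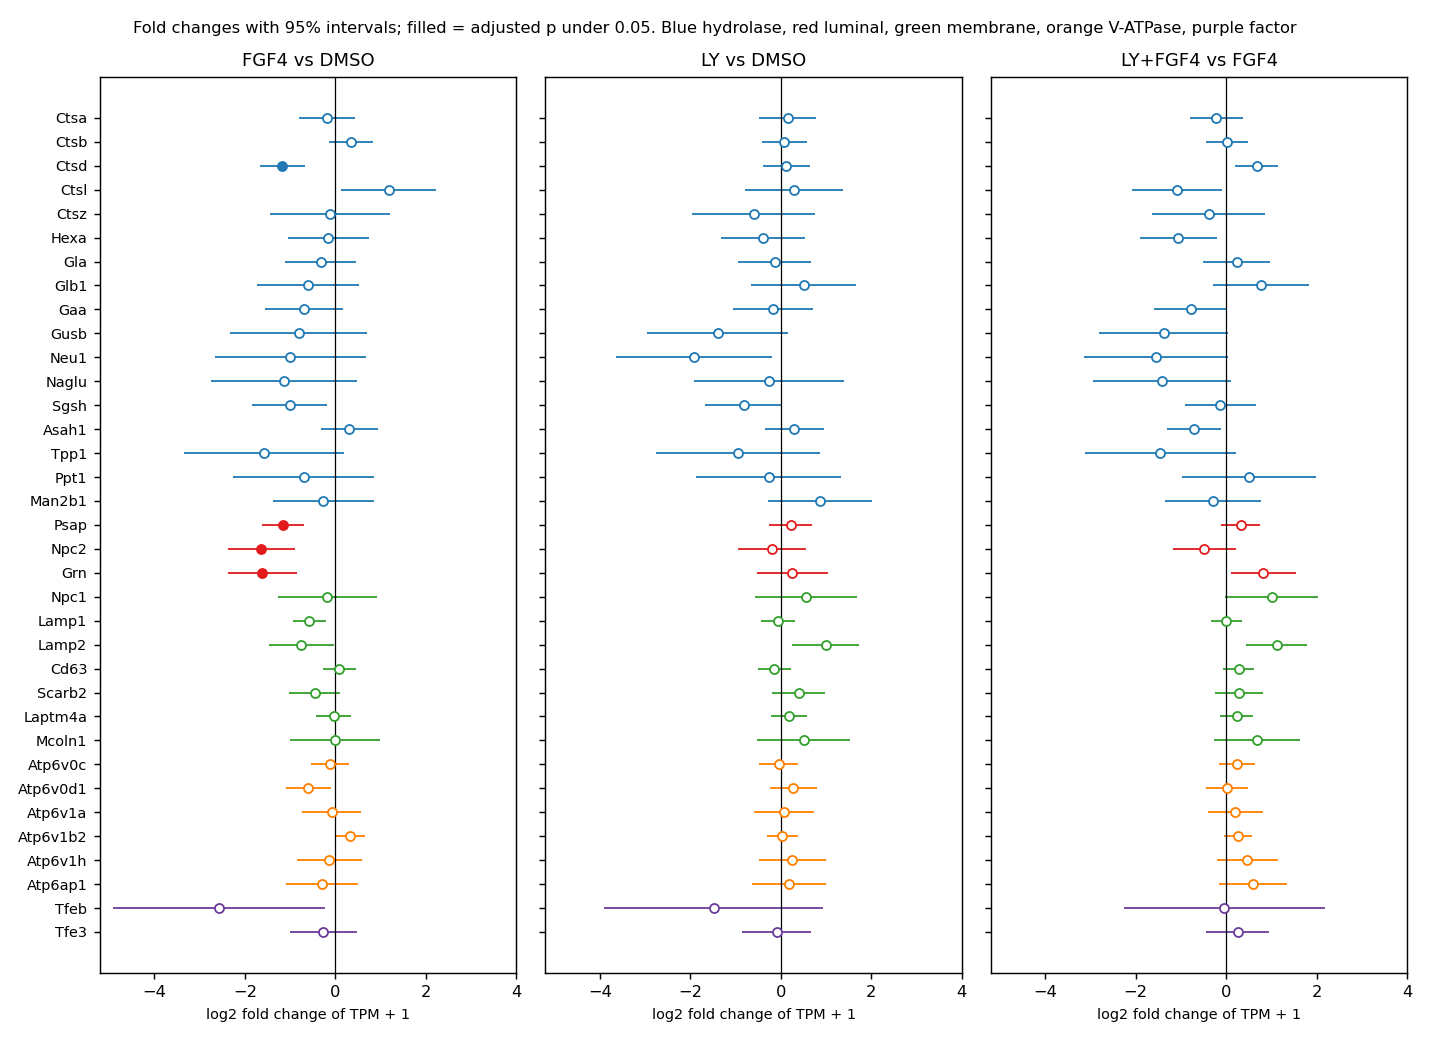
Log2 fold change of TPM + 1 with 95% intervals for the 35 tested lysosomal genes in 3 comparisons, by class; filled points passed an adjusted p of 0.05. Filled points appear only for FGF4 against DMSO, at Ctsd, Psap, Npc2 and Grn, and the interval of Tfeb is the widest.

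The inhibitor in the presence of the growth factor is read from LY+FGF4 against FGF4. No lysosomal gene passed here either. With limma 0 of 35 passed, against 3.55% of all genes tested (0.723% higher and 2.83% lower). An unadjusted p under 0.05 was found for 6 of the 35 and for 2258 of all 12034 genes. The median log2 fold change was 0.20 over the 35 genes and -0.24 over all genes. All 7 membrane genes and all 6 V-ATPase genes had positive values, of 0.00 to 1.11 and of 0.02 to 0.60, while 12 of 17 hydrolases (70.6%) and 63.1% of all genes had negative ones. The 25 further membrane genes described below did not share this sign, with 16 negative (64%, median -0.38). Of the 12 further V-ATPase genes 3 were negative (25%, median 0.14).

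Lamp2 again had the smallest p. It was at 142 TPM in the lowest, 185 in the median and 368 in the highest LY+FGF4 library, and at 39.4, 72.9 and 226 TPM in the lowest, median and highest FGF4 library. The ranges overlapped, and the log2 fold change was 1.11 ± 0.33 (SE, adjusted p = 0.0568). The gene passed without LY+FGF4 replicate 7 (adjusted p = 0.0429) or without FGF4 replicate 2, 3 or 6 (adjusted p = 0.0413, 0.0299 and 0.0207), and also without DMSO replicate 8, which enters only through the pooled spread (adjusted p = 0.0496). Lamp2 was thus the gene of the 35 with the smallest p for LY in either background, but the comparisons with FGF4 and with DMSO each left it short of the threshold.

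Ctsd was at 440 TPM in the lowest, 508 in the median and 760 in the highest LY+FGF4 library, against 136, 366 and 591 TPM in FGF4 libraries (0.68 ± 0.23, adjusted p = 0.101). It passed without FGF4 replicate 6 (0.80, adjusted p = 0.0445). Grn was at 37.9 to 227 TPM with LY+FGF4 and 23.3 to 97.3 TPM with FGF4 (0.82, adjusted p = 0.201), and Psap at 501 to 1619 and 387 to 1054 TPM (0.32, adjusted p = 0.438). The LY+FGF4 maximum of Psap and of Ctsd was in replicate 8, at 1619 and 760 TPM. This library also had the highest Nanog (105 TPM), Utf1 (338 TPM) and summed epiblast markers (743.3 TPM) of the group. The epiblast markers Sox2, Klf2, Prdm14, Esrrb, Tdgf1 and Gdf3 were higher in another library of the group. The part of these markers in the values of Psap and Ctsd was not tested.

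The interaction asked whether the effect of LY differs with and without FGF4. With limma 0 of 35 genes passed, against 0.0499% of all genes tested (0.0249% in each direction). An unadjusted p under 0.05 was found for 1 of the 35 and for 726 of all 12034 genes. The smallest p was that of Asah1, whose LY effect was 1.01 lower on the log2 scale with FGF4 than without it (-1.01 ± 0.43, adjusted p = 0.711). For Psap the difference was 0.10 (95% interval -0.55 to 0.74), and for Ctsd 0.56 (interval -0.14 to 1.26).

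The growth factor under the inhibitor is read from LY+FGF4 against LY, whose libraries are others than those of FGF4 and DMSO. Psap, Npc2, Gaa and Atp6v0d1 fell and Atp6v1b2 rose. These are 4 of 35 genes lower (11.4%, against 4.5% of all genes tested) and 1 higher (2.86%, against 1.79%), where 6.3% of all genes passed in either direction. Among them were 2 of 3 luminal genes, 1 of 17 hydrolases, 0 of 7 membrane genes and 2 of 6 V-ATPase genes. The median log2 fold change was -0.51 over the 35 genes and -0.24 over all genes.

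Psap was at 501 TPM in the lowest, 793 in the median and 1619 in the highest LY+FGF4 library, against 1507, 1661 and 1916 TPM in the LY libraries. 5 of 6 LY+FGF4 libraries were below all LY libraries, and replicate 8 was not. The log2 fold change was -1.07 ± 0.22 (SE, adjusted p = 0.00414). Npc2 was at 62.3, 170 and 371 TPM in the lowest, median and highest LY+FGF4 library, against 275, 615 and 853 TPM in the LY libraries (-1.93 ± 0.35, adjusted p = 0.00147).

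Gaa, the acid α-glucosidase that degrades glycogen in lysosomes, was at 39.1 TPM in the lowest, 124 in the median and 478 in the highest LY+FGF4 library, against 179, 375 and 479 TPM in the LY libraries. The ranges overlapped and the call was near the threshold (-1.32 ± 0.41, adjusted p = 0.0499), and it was lost under 9 of 12 other settings. Grn (-1.06, adjusted p = 0.0798) and Ctsd (-0.62, adjusted p = 0.121) did not pass here.

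Of the 6 V-ATPase genes 1 fell, 1 rose and 4 did not pass. Atp6v0d1 was at 70.2 TPM in the lowest, 136 in the median and 217 in the highest LY+FGF4 library, against 193, 217 and 268 TPM in the LY libraries (-0.86 ± 0.24, adjusted p = 0.0289). Atp6v1b2 was at 372, 465 and 546 TPM in the lowest, median and highest LY+FGF4 library, against 278, 311 and 320 TPM in the LY libraries (0.56 ± 0.16, adjusted p = 0.0292). Every LY+FGF4 library was above every LY library for Atp6v1b2, as for 0.623% of all genes tested. Epiblast markers summed to 259.6 to 743.3 TPM with LY+FGF4 and 808.5 to 1109 TPM with LY, and primitive endoderm markers to 854.3 to 3567 and 222.2 to 484.6 TPM, and their part in these results was not tested. With a term for the genes listed per library none of the 5 passed, and without the 6 libraries under 9000 genes Atp6v0d1 lost its call (-0.75, adjusted p = 0.121). In all, the call of Atp6v0d1 was lost under 6 of 12 settings and 5 of 13 omissions of a library, and that of Atp6v1b2 under 4 of 12 and 3 of 13.

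LY+FGF4 against DMSO gave 4 of 35 genes lower (11.4%, against 7.3% of all genes tested) and 1 higher (2.86%, against 2.19%), shares close to the background of a comparison in which 9.5% of all genes passed. Npc2 fell (-2.13 ± 0.38, adjusted p = 0.000884), with every LY+FGF4 library (62.3 to 371 TPM) below every DMSO library (459 to 998 TPM), as for 4.85% of all genes. Psap (-0.85, adjusted p = 0.0252), Gaa (-1.49, adjusted p = 0.0323) and Tpp1, the tripeptidyl peptidase of the lysosome (-3.04 ± 0.91, adjusted p = 0.0339), fell as well, and Atp6v1b2 rose (0.60, adjusted p = 0.0257). Tpp1 was at 0 TPM in the lowest, 24.7 in the median and 121 in the highest LY+FGF4 library, against 155, 150, 188, 168 and 60.7 TPM in DMSO replicates 3, 6, 7, 8 and 9. Without the 6 libraries under 9000 genes Tpp1 gave -0.94 (adjusted p = 0.631), while the other 4 genes passed, and with a term for genes listed none of the 5 did. Leaving out 1 library lost the call of Tpp1 in 7 of 11 cases (-3.61 to -2.23) and that of Gaa in 7 of 11 (-1.88 to -1.16), and each was lost under 6 of 12 settings. The call of Psap was lost under 5 of 12 settings and 4 of 11 omissions, that of Atp6v1b2 under 4 and 3, and that of Npc2 under 1 and 0. This comparison shares its DMSO libraries with those of FGF4 and LY and its LY+FGF4 libraries with the others.

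**Figure D4:**
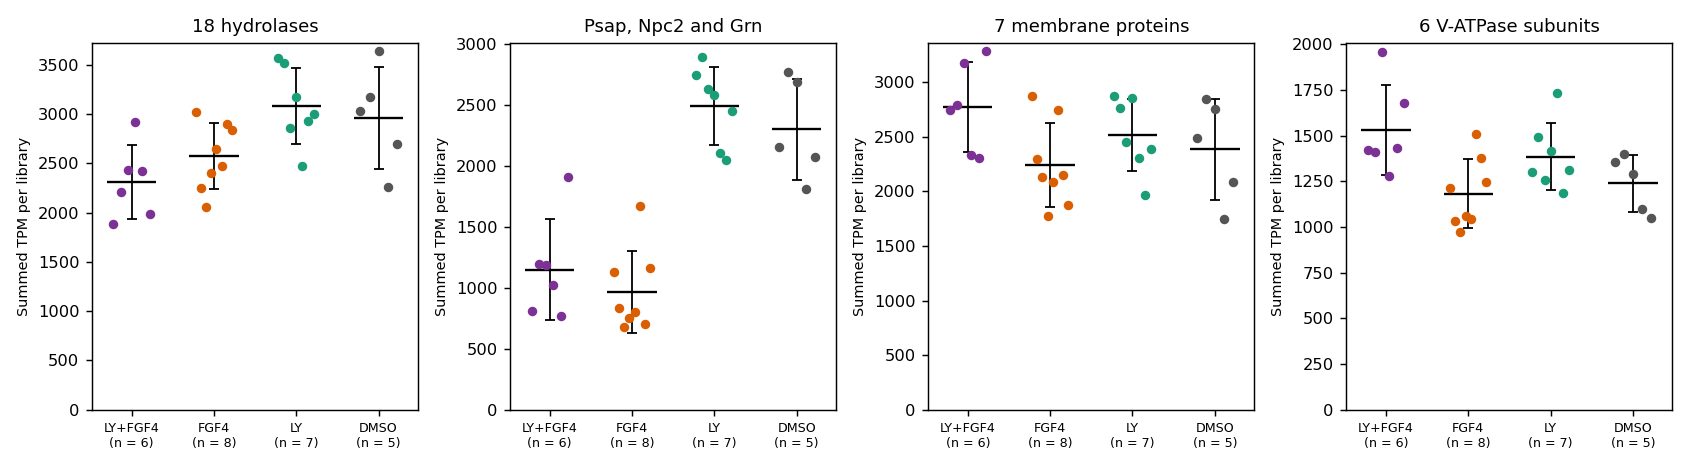
Summed TPM per library for 4 classes of lysosomal genes in the 4 groups; points are ICMs, bars are means and whiskers are 1 SD. The 3 luminal genes sum to 677.6 to 1911 TPM in the libraries with added FGF4 and to 1807 to 2896 TPM in the others, while the other 3 classes overlap between all groups. The 3 luminal genes were each called lower with FGF4 against DMSO in these libraries.

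Summed by class, the luminal genes separated the libraries most. All 3 genes of this class were already called lower with FGF4 against DMSO in these libraries, so their total restates those calls. Their total was 769.1 to 1911 TPM with LY+FGF4, 677.6 to 1670 TPM with FGF4, 2047 to 2896 TPM with LY and 1807 to 2769 TPM in DMSO. Among the libraries with added FGF4, only LY+FGF4 replicate 8, at 1911 TPM, was above the lowest DMSO library. The hydrolases summed to 1878 to 2919 TPM with LY+FGF4, 2057 to 3015 TPM with FGF4, 2473 to 3569 TPM with LY and 2262 to 3634 TPM in DMSO. The membrane genes summed to 2301 to 3284, 1774 to 2873, 1967 to 2869 and 1750 to 2846 TPM in the same order of groups, and the V-ATPase genes to 1280 to 1960, 975.5 to 1508, 1188 to 1732 and 1052 to 1400 TPM. These totals were not tested.

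Atp6v0c, the proteolipid of the membrane sector, and Atp6v1h, a regulatory subunit, gave no call in any comparison. Atp6v0c was at 185 to 418 TPM with LY+FGF4, 195 to 309 with FGF4, 177 to 348 with LY and 214 to 317 in DMSO, and has pseudogene copies with which reads could be shared. Atp6v1h was at 120 to 571, 101 to 309, 81.1 to 407 and 131 to 249.4 TPM in the same order. All 4 ranges of each gene overlapped.

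Tfeb varied widely between libraries of 1 group. It was at 0 TPM in the lowest, 14.2 in the median and 163 in the highest LY+FGF4 library, at 0, 8.85 and 115 TPM with FGF4, at 3.64, 15.4 and 166 TPM with LY, and at 79.5, 70.2, 36.8, 109 and 94.1 TPM in the DMSO replicates. Libraries of each treated group reached above the highest DMSO library at 109 TPM, and no comparison passed (FGF4 against DMSO -2.58 ± 1.15, adjusted p = 0.264; LY against DMSO -1.49, 95% interval -3.90 to 0.93, adjusted p = 0.854). Tfe3 was at 67.4, 76.9 and 252 TPM in the lowest, median and highest LY+FGF4 library, 59.2, 88.2 and 144 TPM with FGF4, 45.4, 97.1 and 206 TPM with LY, and 118, 187, 109, 93.3 and 65.3 TPM in DMSO, with all ranges overlapping and no call. The related Mitf was at 0 in 22 of 26 libraries and Tfec in all 26. TFEB and TFE3 are controlled largely by where the protein sits in the cell, which transcripts do not show.

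**Figure D5:**
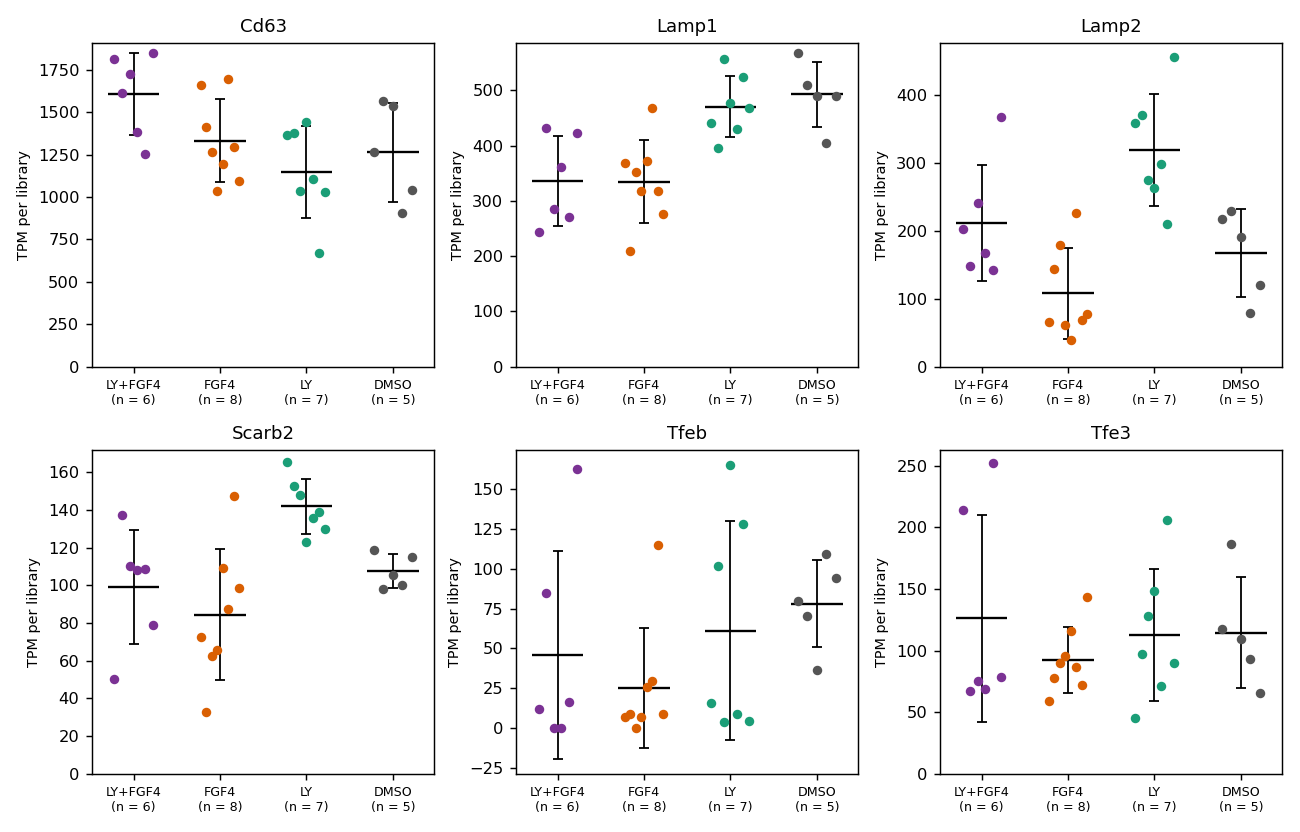
TPM per library for 4 membrane genes and for Tfeb and Tfe3 in the 4 groups; points are ICMs, bars are means and whiskers are 1 SD. Lamp2 averages 319 TPM in LY and 167 TPM in DMSO libraries with overlapping points, and Tfeb spans from near 0 to over 100 TPM within each treated group.

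Other genes of the same compartment were read from lists of genes that were not among the 36. With FGF4 against DMSO, 2 of 28 tested further hydrolases fell and none rose, namely Dnase2a, the acid DNase (-3.24, adjusted p = 0.0113), and Scpep1, a serine carboxypeptidase (-1.0, adjusted p = 0.0491). The list called further hydrolases also holds some genes of other kinds, such as Gm2a and Epdr1. Neither of these passed in any comparison. Of 25 further membrane genes 2 fell, Glmp, a lysosomal membrane glycoprotein (-1.37, adjusted p = 0.00568), and the peptide transporter Abcb9 (-2.64, adjusted p = 0.0214). None of 12 V-ATPase, 11 sorting and 11 mTORC1-anchoring genes passed, with 2, 3 and 4 at an unadjusted limma p under 0.05. Over all 12034 genes tested 1865 had such a p, and 1.46% were lower in this comparison. Glmp was at 66.1 to 154 TPM with FGF4 and 177 to 335 TPM in DMSO, without overlap, as for 1.63% of all genes tested in this direction. With LY against DMSO no gene of these lists passed.

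With LY+FGF4 against FGF4, Ctsc, which activates other proteases by removing dipeptides, rose (1.44, adjusted p = 0.0154), as 1 of 28 further hydrolases. It was at 381.1 to 1716 TPM with LY+FGF4 and 170 to 777 TPM with FGF4, and at 910.1 to 1931 TPM with LY and 278.5 to 739 TPM in DMSO. LY against DMSO gave 1.55 and did not pass (adjusted p = 0.0508). The LY and DMSO ranges of Ctsc did not overlap, as for 0.806% of all genes tested in this direction. Of 11 genes that hold mTORC1 at the lysosome, Lamtor1, the anchor of the Ragulator complex, fell with LY+FGF4 against FGF4 (-0.81, adjusted p = 0.0259) and Rragc, a Rag GTPase, rose (1.87, adjusted p = 0.0436). Lamtor1 was at 71.7 to 128 TPM with LY+FGF4, 82.2 to 207 TPM with FGF4, 124 to 204 TPM with LY and 214 to 297 TPM in DMSO. Of 11 genes for sorting to lysosomes 1 fell with LY+FGF4 against FGF4, Nagpa, the uncovering enzyme of the mannose 6-phosphate tag (-2.69, adjusted p = 0.0191). Over all genes tested 0.723% were higher and 2.83% lower there. With LY+FGF4 against LY, Atp6v0b, another proteolipid, rose (0.81, adjusted p = 0.0433) as 1 of 12 further V-ATPase genes. Of the further hydrolases Scpep1 (-1.08, adjusted p = 0.0159) fell and Fuca1, a fucosidase, rose (0.97, adjusted p = 0.0245) there. Of the 25 further membrane genes 2 fell and 0 rose, and 1 of 11 sorting and 1 of 11 mTORC1-anchoring genes fell, where 4.5% of all genes tested were lower and 1.79% higher.

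On GRCm38 (GENCODE M21) the called genes are all protein-coding. Psap spans 60277627 to 60302597 on chromosome 10, Npc2 84754562 to 84773152 on chromosome 12, Grn 102430315 to 102437048 on chromosome 11 and Ctsd 142375911 to 142388038 on chromosome 7. Gaa spans 119267887 to 119285454 on chromosome 11, Tpp1 105744811 to 105752235 on chromosome 7, Atp6v0d1 105524465 to 105566047 on chromosome 8 and Atp6v1b2 69088646 to 69113711 on chromosome 8. TPM values are per gene and not per isoform.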

How the data were processed

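The authors deposited TPM per gene symbol for 26 libraries. Trimming and removal of duplicates are stated per the labels' protocols, and per the submitters' processing notes STAR, RSEM and mm10 were used. Software versions, annotation and strand setting are not given in the labels or file, and TPM do not give the depth in reads. Each of the 26 libraries is a separate ICM. The genes and lists were chosen with earlier results of these data known.

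From the deposited TPM, log2(TPM + 1) was fitted with limma 3.58.1 in R 4.3.3, with 1 mean per group over all 26 libraries, trend and robust options, two-sided tests and Benjamini-Hochberg adjustment over 12034 genes that reached a TPM of 1 in 5 or more libraries. Every fold change is of log2(TPM + 1), so that of a low gene is understated. The fit was tested on simulated data. Values are given for genes past the threshold, the 3 most abundant hydrolase, membrane and V-ATPase genes, Tfeb and Tfe3. Scarb2, Neu1, Ctsl, Ctsb, Ctsc in LY, and the low genes were named after their values were seen. A planned search of protein tails was not run. Coordinates are from GENCODE M21 and promoters from RefSeq (GRCm38.p6). Other settings and the omission of each library were tried. 1 gene of the further lists is not reported here.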

Additional observations from a re-analysis of the deposited data

Results flagged for a closer look

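Among 84 sets of values of 1 group (17 genes and 4 class totals in 4 groups), 7 had a library far from the others, each time the highest. The rule used flags about 1 in 20 sets by chance if values are normally spread and sets are independent. TPM were not log-transformed here and the sets share libraries and genes, so the rate by chance is unknown. 5 of the 7 are LY+FGF4 libraries. In that group Ctsd was at 760 TPM in replicate 8 with the next library at 535 TPM, and the luminal total was 1911 TPM in the same replicate with the next at 1194 TPM. Tpp1 was at 121 TPM in LY+FGF4 replicate 7 with the next at 40.4 TPM, Grn at 227 TPM in replicate 2 with the next at 103 TPM, and Atp6v1h at 571 TPM in replicate 5 with the next at 275 TPM. In the FGF4 group Npc2 was at 518 TPM in replicate 6 with the next at 289 TPM, and Tfeb at 115 TPM in replicate 7 with the next at 29.7 TPM. Replicates 2, 5 and 8 of LY+FGF4 listed 7486, 8446 and 8494 genes, under the 9000 used as a limit. The other flagged libraries, LY+FGF4 replicate 7 and FGF4 replicates 6 and 7, listed 9534, 10434 and 10781 genes. LY+FGF4 replicate 3 and FGF4 replicates 2 and 3 were under the limit, at 8807, 8315 and 8885 genes, and were not flagged.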

How the results depend on the processing

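None of the 14 calls among the 35 genes reversed its direction under the settings tried; genes of the further lists were not followed across settings. Replicate numbers are shared between groups. After the group mean of each gene was taken away, the 31 same-numbered pairs of libraries had a median correlation of -0.00406 (-0.0824 to 0.068). That of differently numbered pairs was -0.000403, so same-numbered libraries were not treated as pairs. With the replicate block, FGF4 against DMSO gave 0 of 35 lysosomal genes in place of 4 (294 to 41 over all genes), LY+FGF4 against DMSO 2 in place of 5, and LY+FGF4 against LY 4 in place of 5. With the trophectoderm score as a covariate these counts were 0, 2 and 3. With the genes listed as a covariate FGF4 against DMSO kept all 4 genes, LY+FGF4 against LY and against DMSO gave 0 each, and LY+FGF4 against FGF4 gave 1 (Scarb2, 1.03, limma adjusted p = 0.0368). Library weights gave 6 genes for FGF4 against DMSO (Lamp1 and Lamp2 added), 1 for LY against DMSO and 2 for LY+FGF4 against LY. Without trend and robust options LY+FGF4 gave 2 against LY and 2 against DMSO. With only the groups compared it gave 3 and 1, and with no filter 3 against DMSO. Leaving out each library in turn gave 3 to 5 genes for FGF4 against DMSO, 0 to 0 for LY against DMSO, 0 to 2 for LY+FGF4 against FGF4, 2 to 7 for LY+FGF4 against LY and 2 to 7 for LY+FGF4 against DMSO. LY+FGF4 against LY gave 3 without LY replicate 3 and 2 without LY replicate 4. LY+FGF4 against DMSO gave 2 without LY+FGF4 replicate 2 or DMSO replicate 3, 6 or 7, and 3 without DMSO replicate 8 or 9. The interaction gave 0 throughout. Of the class totals 1 moved by more than its SD, the membrane mean of LY+FGF4, which was 2315 TPM without the libraries under 9000 genes in place of 2770 TPM. The causes were not tested. TPM hold no read number, so the depth behind a value listed at 0 is unknown.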

Other observations

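Of the genes that hold mTORC1 at the lysosome, 1 of 11 tested fell and 1 rose in LY+FGF4 against DMSO ICMs. Lamtor1 was at 71.7 to 128 TPM in LY+FGF4 libraries and 214 to 297 TPM in DMSO libraries (log2 fold change -1.46 ± 0.23, limma adjusted p = 0.000255). The ranges did not overlap, as for 4.85% of all genes tested in this direction. All FGF4 (82.2 to 207 TPM) and LY (124 to 204 TPM) libraries were below the DMSO libraries as well. Lamtor2, another Ragulator subunit, rose (0.94 ± 0.22, adjusted p = 0.00824). Of 12 further V-ATPase genes Atp6v0b rose (1.31 ± 0.27, adjusted p = 0.00289), averaging 1372 ± 482 TPM in 6 LY+FGF4 ICMs and 533 ± 76.9 TPM in 5 DMSO ICMs (SD), and Atp6v0e2 fell (-1.71, adjusted p = 0.0441). Of 28 further hydrolases 3 fell and 0 rose, and these were Scpep1 (-1.17), Smpd1 (-3.03), the acid sphingomyelinase, and Acp2 (-3.54), an acid phosphatase. Of 25 further membrane genes 3 fell and 0 rose, namely Glmp (-1.07), Laptm4b (-1.40) and Abcb9 (-2.24), and of 11 sorting genes 2 fell and 0 rose, namely Nagpa (-3.06) and M6pr (-0.79), a mannose 6-phosphate receptor. In the same comparison 7.3% of all genes tested were lower, 2.19% were higher and 9.5% passed in either direction. Of the 6 LY+FGF4 libraries 4 listed fewer than 9000 genes, and the part of these libraries in the values was not tested.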
